A study of Caenorhabditis elegans with 8 samples.

Results

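F-box proteins bind a Skp1-related protein (SKR in worms) through their F-box and carry a second domain that holds the substrate. Together with the cullin CUL-1 and the RING protein RBX-1 they form SCF ubiquitin ligases, in which the F-box protein decides which protein is marked with ubiquitin. The genome of *C. elegans* holds a very large number of F-box genes, many of them in tandem runs of paralogs, and they are sorted into classes A, B and C (*fbxa*, *fbxb* and *fbxc*) by the domain that follows the F-box. For most class B and class C proteins no substrate is known, so the genes below are described by their class, their position and their level.

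The F-box B and C genes were taken as the genes whose symbol begins with fbxb- or fbxc- in the table of 20536 genes that the authors compared between the 2 groups. That gave 65 genes, 38 of class B and 27 of class C, of 152 annotated entries with such a symbol and of 46926 genes in the count table. RNA from whole animals was enriched for polyadenylated transcripts and sequenced in 8 libraries, 4 per group. The libraries labelled smrd1Null came from worms of strain CK3122, which carry a CRISPR-Cas9 deletion in *smrd-1* (the *smrd-1 Δ#1* allele). The libraries labelled Control came from N2 wild-type worms. *smrd-1* encodes a chromatin remodeler related to human SMARCAD1, and the deleted exons 1 to 6 encode the part with the helicase and ATP-binding region. Neither group carried a tau transgene, and all worms were kept at 20 °C on NGM plates with OP50 bacteria. The extraction protocol and the methods give stage L4, while the design text of the series speaks of adults. The deletion is 1 allele in 1 strain, and no source used here says that the 4 libraries of a group came from separate cultures, so the p-values below measure only the spread between these libraries, which may be technical. In RNA from whole animals, fewer cells of a type and less RNA per cell cannot be told apart.

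Total counts were 74704022 to 78008833 per library. *smrd-1* went against its label. Libraries labelled smrd1Null gave it 6369, 6252, 6874 and 6330 counts, against 3638, 2997, 3876 and 4073 counts in the libraries labelled Control. Its level was 85.1 ± 4.35 CPM in libraries labelled smrd1Null and 47.9 ± 3.93 CPM in libraries labelled Control (counts per 1000000 counts after TMM normalization, SD, n = 4 each), a log2 fold change of 0.83 ± 0.0813 (SE) with an adjusted p of 0.00889 in edgeR. The count covers the whole gene, including exons outside the deletion, so it does not check the deleted part itself. Every direction below is drawn from these labels. Replicates 1 and 2 also stood apart from replicates 3 and 4 in both groups along the first principal component, which held 50.0% of the variance over all tested genes. The groups were ordered on this component too. Replicates 1 and 2 lay at −24.8 and −9.18 when labelled smrd1Null and at −50.7 and −69.7 when labelled Control. Replicates 3 and 4 lay at 61.2 and 51.7 when labelled smrd1Null and at 24.7 and 16.7 when labelled Control.

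The F-box B and C genes were weakly expressed, and no difference between the groups passed the main test, edgeR without covariates, in any of them. DESeq2 called 1 of them, *fbxc-32*. Of the 152 annotated entries, 87 had fewer than 10 counts over all 8 libraries, 38 of these with no count in any library, and so were not in the comparison table. *fbxb-65*, reported in worms to regulate the kinesin UNC-104, was among them with 6 counts in all. At the edge of this minimum, 6 of the 65 genes had exactly 10 counts and 2 of the entries left out had 9. Those 2 entries share the symbol *fbxc-5*, lie at different places on chromosome IV and list the same count in every library, so their counts are uncertain. In a single library 43 to 55 of the 65 genes had a count. In total the 65 genes held 42730 counts, and 5 genes held 65.8% of these. A count of 3, taken as the floor of detection, was 0.0371 to 0.0422 CPM per library, and this floor covers counting error only.

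A filter on low counts kept 29 of the 65 genes for the test across all genes, 12 of class B and 17 of class C. The other 36, 26 of class B and 10 of class C, had 10 to 106 counts in total with a median of 21.5, and 33 of them had no count in at least 1 library. Of the 29 genes kept, 16 reached the filter's limit of 0.132 CPM in all 4 libraries of both groups. Another 4 did so in all 4 libraries only of those labelled smrd1Null, and 2 only of those labelled Control. The other 7 reached it in all 4 libraries of neither group. Of the nonzero counts of the 65 genes 86.0% were even numbers, as arises when both mates of a read pair are counted.

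Class and chromosome went together with detection. Class C genes were annotated only on chromosomes II and IV. On chromosome II 25 of 35 class C entries were in the comparison table, and on chromosome IV only 2 of 13 were. Class B genes were spread over all chromosomes, with 15 of 58 entries in the table on chromosome II, 7 of 10 on chromosome I and 4 of 16 on chromosome V. In all, 40 of the 65 genes lay on chromosome II. Reads that fit more than 1 place were not counted by the authors, which lowers the counts of near-identical copies, and its part in these shares was not tested.

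**Figure D1:**
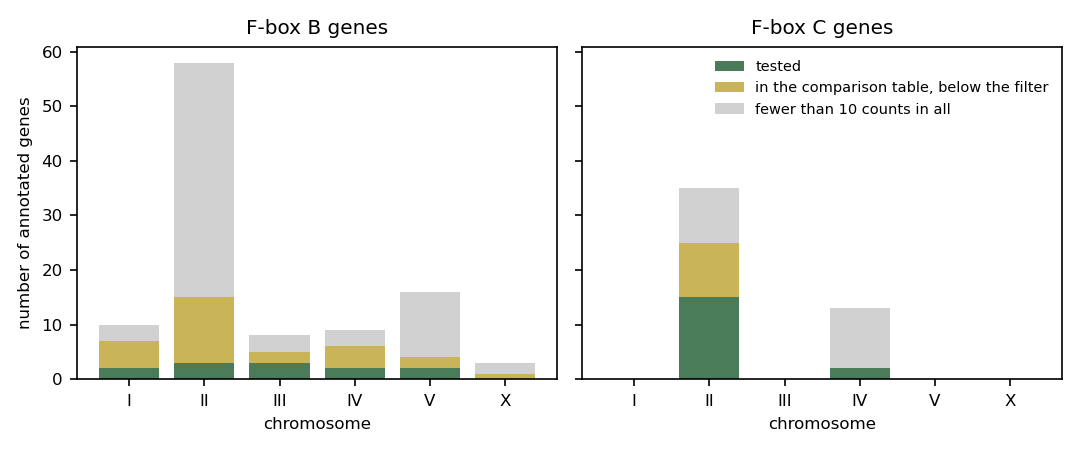
Number of annotated F-box B genes (left) and F-box C genes (right) on each chromosome. Green marks genes tested across all libraries, yellow genes of the comparison table below the filter on low counts, and grey entries with fewer than 10 counts in all; chromosome II holds most entries of both classes, and 43 of its 58 class B entries are grey.

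Levels were compared per length, as RPKM, which is the CPM divided by the exon length in kilobases. Over both groups the tested class C genes had a median of 1.74 RPKM, from 0.137 to 12.1, and the tested class B genes a median of 0.173 RPKM, from 0.105 to 1.88. The median over all tested genes was 8.09 RPKM, and 2 of the 29 genes lay above it. The tested *fbxa* genes had a median of 1.82 RPKM. The 5 genes with the highest level were all of class C.

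*fbxc-44* (WBGene00015819, chromosome II, 4236504 to 4237751, minus strand) was the highest, with 13.3 ± 2.64 RPKM in libraries labelled smrd1Null and 10.8 ± 1.82 RPKM in libraries labelled Control (SD, n = 4 each). *fbxc-45* (WBGene00021887, chromosome IV, 2919827 to 2922243, minus strand) followed with 10.2 ± 1.36 RPKM in libraries labelled smrd1Null and 8.08 ± 0.916 RPKM in libraries labelled Control. These 2 genes were the ones above the median of all tested genes. *fbxc-52* (chromosome II, 3717261 to 3719764, plus strand) had 6.99 ± 1.31 RPKM in libraries labelled smrd1Null and 8.01 ± 1.57 RPKM in libraries labelled Control. *fbxc-50* (chromosome II, 3246316 to 3248123, minus strand) had 8.30 ± 2.58 RPKM in libraries labelled smrd1Null and 5.75 ± 2.09 RPKM in libraries labelled Control. *fbxc-58* (chromosome IV, 9371508 to 9373206, plus strand) had 5.04 ± 1.88 RPKM in libraries labelled smrd1Null and 6.96 ± 1.47 RPKM in libraries labelled Control. *fbxc-44* was above *fbxc-45* in 8 of 8 libraries. Each of the next neighbours in this order changed places in some libraries, since *fbxc-45* was above *fbxc-52* in 6, *fbxc-52* above *fbxc-50* in 5 and *fbxc-50* above *fbxc-58* in 6 of 8.

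*fbxb-38* was the highest class B gene, with 1.69 ± 0.192 RPKM in libraries labelled smrd1Null and 2.07 ± 0.0749 RPKM in libraries labelled Control. It overlaps the antisense RNA gene *anr-48* on the opposite strand. The counting did not use strand, so reads in exons of both genes were not counted for either. Reads in exons of only 1 of the genes were counted for it, whatever their strand. In all, 9 of the 65 genes overlap another annotated gene and 6 of these a protein-coding one, so their counts are uncertain. Among them are *fbxb-24*, with 97 counts on the strand opposite *faah-4*, which has 28392 counts, and *fbxb-103*, with 36 counts opposite *bcmo-2*, which has 4844. All other class B genes had a mean under 1 RPKM.

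**Figure D2:**
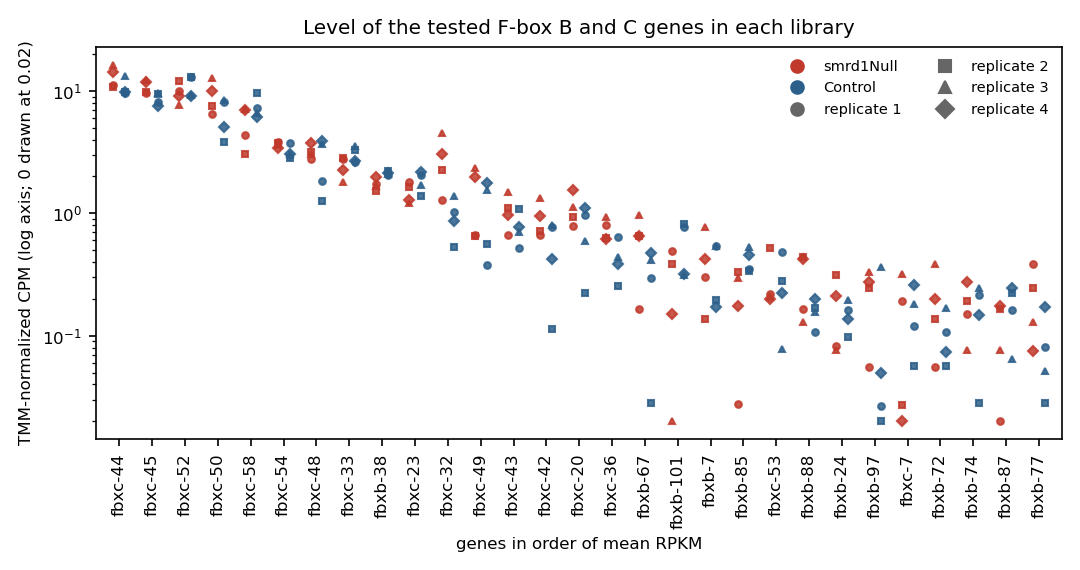
TMM-normalized CPM (log axis, a count of 0 drawn at 0.02) of the 29 tested F-box B and C genes in each library, ordered by mean RPKM. Libraries labelled smrd1Null are red and stand left of those labelled Control in blue, with 1 symbol per replicate number; the spread between libraries widens toward the right, where the class B genes lie.

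The comparison of the libraries labelled smrd1Null with those labelled Control asked which transcripts differ in animals with the deletion. edgeR called 26 of 16808 tested genes at an adjusted p of 0.05, which is 0.155%, 15 higher and 11 lower. It called 0 of the 29 F-box B and C genes, and the smallest adjusted p among them was 0.436, for *fbxc-32*. At an unadjusted p of 0.05 the same test took 3 of the 29, *fbxc-32*, *fbxc-36* and *fbxc-45*, all higher in libraries labelled smrd1Null, beside 7.74% of all tested genes. By direction, 3.9% of all tested genes had such a p and were higher, while 3.84% had one and were lower, against 0 of the 29 on the lower side. DESeq2, which the study's methods name for its own comparison, called 1.72% of all tested genes and 1 of the 29, *fbxc-32*. With replicates 1 and 2 against 3 and 4 as a covariate, an alternative chosen after seeing the data, edgeR called 5.53% of all tested genes and again 1 of the 29, *fbxc-32*.

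The fitted log2 fold change lay above 0 in 20 of the 29 genes and below 0 in 9, against 48.6% above 0 over all tested genes. The median was 0.25, against −0.01 over all tested genes. Class C genes had 12 values above 0 and 5 below, with a median of 0.30 and a range of −0.46 to 1.55. Class B genes had 8 above and 4 below, with a median of 0.19 and a range of −1.12 to 1.28. The class B median was −0.06 over the genes with at least 10 counts in every library, so its sign changed with the filter. Of the related families, the *fbxa* genes had 62 values above and 60 below 0 with a median of 0.01, and the MATH and BTB domain genes, whose proteins are also adaptors of cullin ligases, had 38 above and 18 below with a median of 0.12. edgeR called 3 of 122 tested *fbxa* genes and 1 of 56 tested MATH and BTB domain genes. These medians describe the lists and carry no test.

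Summed over the 65 genes, the libraries labelled smrd1Null held 63.4, 67.7, 86.0 and 79.3 CPM, against 68.1, 63.8, 71.8 and 61.4 CPM in the libraries labelled Control. Replicates 3 and 4 labelled smrd1Null were above all other libraries, and replicates 1 and 2 of that group lay within the range of those labelled Control. The groups therefore overlapped in the sum.

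**Figure D3:**
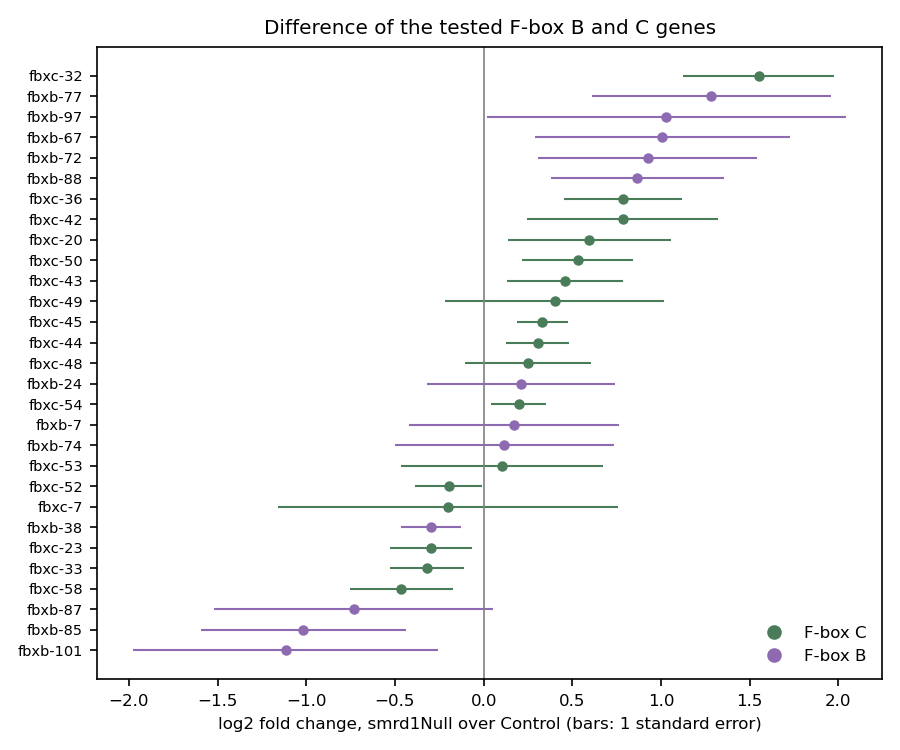
Log2 fold change of the 29 tested genes, smrd1Null over Control, with bars of 1 standard error, sorted by value. Class C genes are green and class B genes purple; 20 points lie above 0 and 9 below, and the genes with the widest bars are mostly of class B.

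*fbxc-32* had the largest difference of the tested genes. This gene (WBGene00016303) lies on the minus strand of chromosome II from 946485 to 948191 and has 3 exons with 1318 bases. The 4 libraries labelled smrd1Null held 94, 164, 354 and 246 counts of it, against 76, 38, 106 and 70 in the 4 labelled Control. Replicates 3 and 4 labelled smrd1Null were the highest, and the groups overlapped only because replicate 1 labelled smrd1Null lay below replicate 3 labelled Control after normalization, at 1.29 against 1.38 CPM. The level was 2.79 ± 1.38 CPM in libraries labelled smrd1Null and 0.949 ± 0.350 CPM in libraries labelled Control (SD, n = 4 each). In edgeR the log2 fold change was 1.55 ± 0.426 (SE), with an unadjusted p of 0.00575 and an adjusted p of 0.436. The adjusted p was 0.0279 in DESeq2 and 0.0370 in edgeR with the covariate for the 2 sets of replicates, so the call depends on the model. Without each library in turn the log2 fold change was between 1.20, without replicate 3 labelled smrd1Null, and 1.79, and edgeR's adjusted p was between 0.390 and 0.883. The log2 ratio of the group means was 1.19 among replicates 1 and 2 alone and 1.76 among replicates 3 and 4 alone.

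The other genes with a small unadjusted p differed by less. *fbxc-36* (chromosome II, 940983 to 943167, plus strand) had 0.798, 0.630, 0.925 and 0.622 CPM in libraries labelled smrd1Null, against 0.645, 0.253, 0.441 and 0.383 CPM in libraries labelled Control. Replicate 1 labelled Control lay among the smrd1Null values and the other 3 Control libraries lay below them all. Its log2 fold change was 0.79 ± 0.332 (SE), with an unadjusted p of 0.0437 and an adjusted p of 0.639 in edgeR. *fbxc-45* had 9.53, 9.76, 12.4 and 11.9 CPM in libraries labelled smrd1Null, against 8.17, 9.41, 9.56 and 7.53 CPM in libraries labelled Control. Here replicates 3 and 4 labelled smrd1Null were above all others, and replicate 1 of that group lay below replicate 3 labelled Control. Its log2 fold change was 0.33 ± 0.144, with an unadjusted p of 0.0489 and an adjusted p of 0.639 in edgeR. *fbxc-44* (0.30 ± 0.178) and *fbxc-50* (0.53 ± 0.313) were also fitted above 0, both with overlapping groups, while *fbxc-52* was fitted at −0.20 ± 0.189 and *fbxc-33* at −0.32 ± 0.210.

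*fbxc-58* differed between the sets of replicates. It had 4.40, 3.04, 7.08 and 7.04 CPM in libraries labelled smrd1Null, against 7.29, 9.70, 6.66 and 6.13 CPM in libraries labelled Control. Replicates 1 and 2 alone gave a log2 ratio of −1.19 and replicates 3 and 4 alone one of 0.14, and the fitted value over all libraries was −0.46 ± 0.291 (SE) with an adjusted p of 0.694 in edgeR. *fbxb-77*, a weak class B gene on chromosome IV with 62 counts in libraries labelled smrd1Null and 26 in libraries labelled Control, had log2 ratios of 2.54 and −0.15 in the same sets, and a fitted value of 1.28 ± 0.675. In 20 of the 29 genes both sets gave a difference of the same sign, and in 9 they did not. No share over all tested genes is given beside these counts.

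Class B genes with larger fitted values rested on few counts. *fbxb-67* (chromosome I) had 12, 48, 76 and 52 counts in libraries labelled smrd1Null and 22, 2, 32 and 38 counts in libraries labelled Control, a log2 fold change of 1.01 ± 0.720 (SE). *fbxb-97* (chromosome II) had 4, 18, 26 and 22 counts in libraries labelled smrd1Null and 2, 0, 28 and 4 counts in libraries labelled Control, a log2 fold change of 1.03 ± 1.01 that became 3.04 without replicate 3 labelled Control. The groups of both genes overlapped. *fbxb-72* (chromosome V, 0.92 ± 0.617) and *fbxb-88* (chromosome II, 0.87 ± 0.487) were fitted above 0 as well. With each library left out in turn *fbxb-72* ran from 0.35 to 1.27.

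On the lower side, *fbxb-101* (chromosome I) had 36, 28, 0 and 12 counts in libraries labelled smrd1Null and 58, 58, 24 and 26 counts in libraries labelled Control, a log2 fold change of −1.12 ± 0.860 (SE). *fbxb-87* (chromosome III) was fitted at −0.73 ± 0.788 with 32 counts in libraries labelled smrd1Null and 53 in libraries labelled Control. In 24 of the 29 genes the fitted sign stayed the same when each library was left out in turn, and in 5 weakly differing genes (*fbxc-7*, *fbxc-53*, *fbxb-24*, *fbxb-74* and *fbxb-7*) it did not. The share over all tested genes is not given for this count either.

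In 2 of the 29 tested genes the groups did not overlap in CPM, beside 5.2% of all tested genes. *fbxb-38* had 1.75, 1.52, 1.67 and 1.99 CPM in libraries labelled smrd1Null, against 2.06, 2.23, 2.09 and 2.13 CPM in libraries labelled Control. All 4 smrd1Null values lay below the lowest Control value, by a small margin, and the log2 fold change was −0.30 ± 0.169 (SE) with an adjusted p of 0.679 in edgeR. *fbxb-85* (WBGene00011267, chromosome III, 10847614 to 10848963, minus strand) had 2, 24, 23 and 14 counts in libraries labelled smrd1Null, against 26, 24, 41 and 37 counts in libraries labelled Control. The 2 libraries with 24 counts were separated only by normalization, at 0.328 CPM for replicate 2 labelled smrd1Null and 0.337 CPM for replicate 2 labelled Control, and the groups overlapped in CPM of the raw library total. The log2 fold change was −1.02 ± 0.576, with an adjusted p of 0.678 in edgeR.

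The precision followed the level. The standard error of the log2 fold change ran from 0.144, for *fbxc-45*, to 1.01, for *fbxb-97*. Its median was 0.221 over the 12 genes with at least 1 CPM and 0.594 over the 17 genes with less. For 8 of the 29 genes the nominal 95% interval, taken from the standard error, lay within a log2 of 1 on either side of 0. For the other 21 it reached beyond that size.

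Genes below the filter are given by their counts. *fbxc-31* (WBGene00019925, chromosome II, 911980 to 913052) had 4, 2, 2 and 2 counts in libraries labelled smrd1Null and 0 in all libraries labelled Control. *fbxb-78* (chromosome IV) had 0 in all libraries labelled smrd1Null and 2, 0, 8 and 8 counts in those labelled Control. *fbxb-115* (chromosome V) had 0 in all libraries labelled smrd1Null and 0, 0, 6 and 4 in those labelled Control. No fold change is given for these 3 genes, since their counts lie near or below the floor of 3 counts. An exact two-sided permutation test of the mean CPM gave p = 0.0286 for *fbxc-31*, the smallest that the 70 arrangements of 4 against 4 libraries allow. Any gene whose groups do not overlap has this p, whatever the size of the difference. It thus adds no support beyond the counts by which *fbxc-31* was named. The same exact permutation test gave p = 0.143 for *fbxb-78* and p = 0.429 for *fbxb-115*. This test exchanges all 8 libraries freely. With exchange only within the 4 pairs of the same replicate number, an alternative chosen after seeing the data, 16 arrangements remain and the smallest exact p is 0.125, which *fbxc-31* had, so no gene can pass 0.05 in it.

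The groups did not overlap in 2 of the 36 genes below the filter, beside 2.98% of the 3728 genes of the comparison table below it. They were *fbxc-31* and *fbxc-28*, which is named here after its values were seen. *fbxc-28* had 12, 6, 32 and 16 counts in the libraries labelled smrd1Null, against 5, 0, 6 and 4 counts in the libraries labelled Control. Its p was 0.0286 in the exact permutation test over all libraries and 0.125 in that within pairs. The lack of overlap alone fixes these p-values. Its lowest smrd1Null library and its highest Control library had 6 counts each and were separated only by normalization. The 36 genes were each tested in this way, and no p is adjusted over them.

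*fbxc-31*, *fbxc-28*, *fbxc-36* and *fbxc-32* lie in the same stretch of chromosome II. Joining genes of the 65 whose starts lie within 20000 bases of each other gave 9 runs of more than 1 gene. The longest, from 911980 to 993179 on chromosome II, spans 81200 bases. It holds 13 of the 65 genes, all of class C, 12 on the plus strand and *fbxc-32* on the minus strand. In order along the chromosome they are *fbxc-31*, *fbxc-33*, *fbxc-29*, *fbxc-28*, *fbxc-34*, *fbxc-36*, *fbxc-32*, *fbxc-7*, *fbxc-14*, *fbxc-15*, *fbxc-40*, *fbxc-39* and *fbxc-42*. Genes of such a run are paralogs, so reads shared between them were not counted for any.

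Of the 13 genes of the run, 5 were tested, with log2 fold changes of −0.32 (*fbxc-33*), 0.79 (*fbxc-36*), 1.55 (*fbxc-32*), −0.20 (*fbxc-7*) and 0.78 (*fbxc-42*). The neighbours at either side of *fbxc-32*, *fbxc-36* and *fbxc-7*, thus had values of opposite sign, and that of *fbxc-7* had a standard error of 0.960. *fbxc-42*, at the far end, had 48, 52, 104 and 76 counts in libraries labelled smrd1Null, against 58, 8, 62 and 34 counts in libraries labelled Control, and the groups overlapped. By mean CPM, 9 of the 13 genes were higher in libraries labelled smrd1Null and 4 were lower, while over all 65 genes 43 were higher and 22 lower. Another 22 genes of the count table lie between the ends of the run, the untested entries *fbxc-17*, *fbxc-18* and *fbxc-30* among them. Of the 22, 9 were tested. edgeR called 0 of these, and 1 had an unadjusted p of 0.05 or less. Their median log2 fold change was 0.26, with 7 values above 0 and 2 below, beside 0.23 over the 24 tested F-box B and C genes outside the run.

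**Figure D4:**
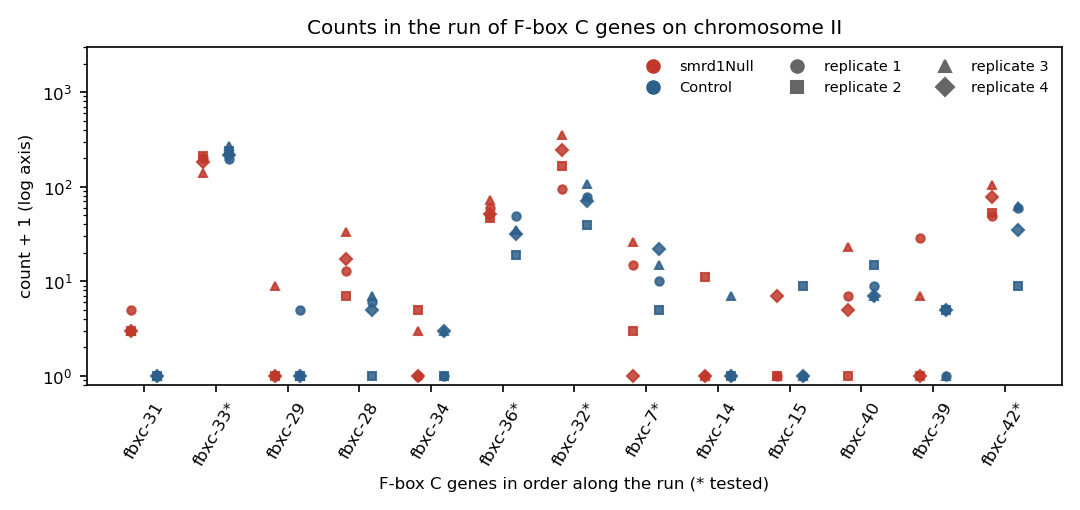
Counts (plus 1, log axis) of the 13 F-box C genes of the run on chromosome II, in order along the chromosome, with an asterisk for the 5 tested genes. Libraries labelled smrd1Null are red and left of those labelled Control in blue; *fbxc-32* shows the widest gap between the groups among the tested genes, *fbxc-33* holds 140 to 271 counts in all libraries, and *fbxc-31* has 0 counts in all libraries labelled Control.

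Markers of stage and tissue moved with some of these genes. The sum of the 6 vitellogenin (yolk) genes was 6583, 8549, 18352 and 12312 CPM in libraries labelled smrd1Null, against 5639, 2249, 6596 and 3131 CPM in libraries labelled Control. *col-19*, an adult cuticle collagen, had 456, 543, 1545 and 1179 CPM in libraries labelled smrd1Null, against 435, 228, 631 and 324 CPM in libraries labelled Control. The 3 oocyte markers summed to 165 to 395 CPM in libraries labelled smrd1Null and 107 to 243 CPM in libraries labelled Control. All 6 yolk genes, all 3 oocyte genes and 29 of 31 sperm genes were fitted above 0 in smrd1Null over Control, as were both germline markers. Both markers each of body wall muscle, hypodermis and neurons were fitted below 0, as were 2 of the 3 markers of molting epidermis and 1 of the 2 of intestine. Muscle markers summed to 3284 to 7071 CPM in libraries labelled smrd1Null and 4275 to 7129 CPM in libraries labelled Control. edgeR called 0 marker genes of the 10 lists, and none was at 0 in every library.

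In both groups *fbxc-32* ranked the 4 libraries in the same order as the yolk sum, the oocyte sum and *col-19*. So did *fbxc-42*, *fbxc-50* and *fbxb-72*. Over all pairs of the 29 tested genes and the 10 marker lists, 14 of 290 had the same order in both groups, from 6 genes. The yolk sum, the oocyte sum and *col-19* themselves ranked the libraries alike in both groups, so matches to them are not separate. No share over all tested genes is given beside these counts. The part of stage or tissue makeup in the differences of these genes was not tested. *fbxc-33*, in the same run as *fbxc-32*, ranked the libraries in the order of none of the 10 lists, like every tested gene outside those 6.

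*fbxc-49* (WBGene00020534, chromosome II, 2084129 to 2085213) followed the sets of replicates. It had 48, 48, 182 and 160 counts in libraries labelled smrd1Null, and 28, 40, 120 and 144 counts in libraries labelled Control. In both groups replicates 3 and 4 lay above replicates 1 and 2 (means of 1.92 and 0.564 CPM), while the groups overlapped and the log2 fold change was 0.40 ± 0.615 (SE). It was the only one of the 29 genes with all libraries of replicates 3 and 4 above all of replicates 1 and 2, beside 16.3% of all tested genes. *fbxc-52* and *fbxb-101* had the opposite order, beside 16.7% of all tested genes. The source of the 2 sets is not given in the sources used here.

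**Figure D5:**
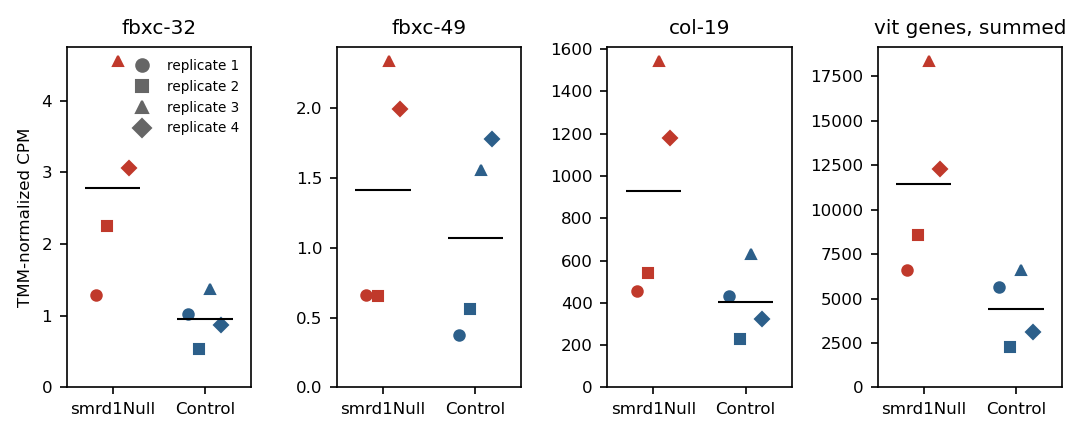
TMM-normalized CPM of *fbxc-32*, *fbxc-49*, *col-19* and the summed vitellogenin genes in each library, with libraries labelled smrd1Null in red on the left and those labelled Control in blue on the right of each panel, symbols by replicate number and a line at the group mean. In *fbxc-32*, *col-19* and the vitellogenin sum the replicates 3 and 4 labelled smrd1Null are the highest; in *fbxc-49* replicates 3 and 4 are high in both groups.

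The partners of the F-box proteins were read from lists of genes. Of 24 SCF genes (*cul-1*, *cul-6*, *rbx-1*, *rbx-2* and the *skr* genes), 20 were tested, 15 with a log2 fold change above 0 and 5 below, against 48.6% above 0 over all tested genes, and with a median of 0.17. edgeR and DESeq2 called 0 of them, and edgeR took 4 of the 20 at an unadjusted p of 0.05, beside 7.74% of all tested genes. *skr-5* had 0.715, 0.958, 1.09 and 1.19 CPM in libraries labelled smrd1Null, against 0.0403, 0.309, 0.597 and 0.222 CPM in libraries labelled Control. The groups did not overlap, and the log2 fold change was 1.75 ± 0.599 (SE) with an adjusted p of 0.568 in edgeR. *skr-7* had a log2 fold change of 1.34 ± 0.483, with overlapping groups and an adjusted p of 0.589 in edgeR. *skr-3* (−0.27 ± 0.110) and *cul-6* (−0.45 ± 0.197) were fitted below 0, with adjusted p of 0.635 and 0.639 in edgeR. SKR-3, SKR-5 and CUL-6 are known to act together in worms in the response to intracellular pathogens, and here their transcripts had fitted values of different sign.

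The core subunits that most SCF ligases share were close to 0 in difference. *cul-1* had 99.8 ± 3.97 CPM in libraries labelled smrd1Null and 102 ± 4.34 CPM in libraries labelled Control (SD, n = 4 each), a log2 fold change of −0.03 ± 0.0651 (SE). *skr-1*, the main Skp1 of the worm, had 183 ± 6.27 CPM in libraries labelled smrd1Null and 182 ± 6.08 CPM in libraries labelled Control. *rbx-1* had a log2 fold change of 0.17 ± 0.118. The 17 genes of cullin activation and ubiquitin supply, among them the ubiquitin-like *ned-8*, the COP9 signalosome genes and the ubiquitin-activating *uba-1*, had log2 fold changes from −0.08 to 0.17, and 0 had an unadjusted p of 0.05 or less in edgeR.

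F-box genes with known roles were read beside them, and edgeR called 0 of these 6, with a smallest adjusted p of 0.639 and 0 at an unadjusted p of 0.05. *lin-23*, which limits cell division, had 101 ± 9.32 CPM in libraries labelled smrd1Null and 94.9 ± 4.52 CPM in libraries labelled Control. *sel-10*, which acts on Notch signalling, had a log2 fold change of 0.12 ± 0.0916 (SE). *fsn-1*, which acts at synapses, was fitted at 0.41 ± 0.181, and *mec-15*, needed in touch neurons, at 0.27 ± 0.153. *fog-2*, which promotes sperm formation in hermaphrodites, was fitted at 0.34 ± 0.217, and *dre-1*, which times larval development, at −0.14 ± 0.191.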

How the data were processed

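Whole-animal polyadenylated RNA of 8 libraries (4 labelled smrd1Null, 4 labelled Control) was read from the table of raw counts per gene that the authors deposited, made with featureCounts 2.0.1 on WBcel235. Its command names annotation release 112 (the methods name release 113) and no option for read pairs or strand, so mates were counted singly, and reads with several places or genes were not counted. Positions came from release 115. The authors' comparison table holds genes with at least 10 counts. Only its gene symbols were used, and its fold changes and p-values were not. No reference sequences were used.

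The main test was edgeR 4.0.16 (R 4.3.3, limma 3.58.1): TMM, filterByExpr, quasi-likelihood F test without covariates, Benjamini-Hochberg adjustment over 16808 genes, adjusted p of 0.05. Standard errors are the log2 fold change over the square root of F. RPKM was computed from the deposited counts and exon lengths. Fits were tested on simulated data with a smaller spread between libraries than the main fit found and no sets of replicates. Changes were placed only in genes above a minimum count, so that test does not cover the weakest genes. Genes below the filter had exact permutation tests (scipy 1.17.1). Tables and plots used Python 3.11.15, numpy 2.4.6, pandas 2.3.3 and matplotlib 3.10.9. Alternatives were DESeq2 1.42.0, its size factors, other filters, a replicate block, each library left out, and a covariate for replicates 1 and 2 against 3 and 4. Totals of 74704022 to 78008833 counts limit precision for weak genes.

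Same-numbered libraries deviated together, with correlations of 0.357, 0.221, 0.489 and 0.390 for replicates 1 to 4. No correlations between libraries of different numbers are given beside them. The split between the sets of replicates, shared by both groups, can also make such values positive. The correlations therefore cannot show that the numbers pair the libraries, and no source says so. The pairing entered only the alternatives with a replicate block or with exchange within pairs. The members and gene lists were chosen with earlier results of these data known. Named genes were *smrd-1*, any member called, the 10 members with the smallest p, the 5 with the highest and the 5 with the lowest log2 fold change, the 5 with the highest RPKM, members at 0 in 1 group with at least 10 counts in the other, and SCF genes with an unadjusted p of at most 0.05. Other named genes were chosen after their values were seen.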

Additional observations from a re-analysis of the deposited data

Results flagged for a closer look

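The 25 named genes (20 F-box B and C genes, *smrd-1* and 4 SCF genes) were screened in each group for a single library far from the other 3 (gap to the nearest library over the whole range, above Dixon's critical value at the 95% level). Of 50 groups screened 3 passed, and chance gives about 1 in 20. *fbxc-44* had 13.3 CPM in replicate 3 labelled Control, against 9.69 to 9.82 CPM in the other libraries labelled Control, a ratio of 0.965. *fbxb-97* had 0.364 CPM in the same library, from 28 counts, against 0 to 0.0494 CPM in the others, a ratio of 0.864. *fbxc-31* had 4 counts in replicate 1 labelled smrd1Null and 2 in each other library of that group, a ratio of 0.918.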

How the results depend on the processing

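Over all genes, edgeR's 26 calls (15 higher, 11 lower) became 289 with DESeq2 (136 higher, 153 lower), 929 with the covariate for replicates 1 and 2 against 3 and 4, chosen after seeing the data (449 higher, 480 lower), and 7 to 14 without each library in turn. Of the F-box B and C genes 0 were called, but 1 (*fbxc-32*) with DESeq2 and 1 with that covariate; the cause was not tested, though the common dispersion was 0.0852 without and 0.0335 with the covariate. With the replicate block 26 genes and 0 F-box B and C genes were called (14 higher, 12 lower). The block changed the call of no gene named here. Of the 56 tested MATH and BTB domain genes edgeR called 0 with the block, in place of 1. With exchange only within pairs, the difference of *fbxc-31* (0.0332 CPM) had an exact permutation p of 0.125 in place of 0.0286, the smallest p either test allows. Without each library in turn 0 F-box B and C genes were called, and the class medians ran from 0.08 to 0.46 (B) and 0.21 to 0.40 (C). Nonoverlapping groups fell to 1 gene with CPM of the raw library total, since *fbxb-85* then overlapped. *smrd-1* missed the threshold once, with an adjusted p of 0.0574 in edgeR without replicate 1 labelled smrd1Null. Among 299 alternatives for 22 named genes, the call changed only in those given above for *fbxc-32* and *smrd-1*. Weak counts limit most class B genes.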
